A study of Mus musculus with 32 samples.

Results

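Macrophages of AKR and DBA/2 mice were compared here before any cholesterol loading, in the second of the study's 2 experiments, using 7 of its 32 arrays. The 7 arrays were the 4 of unloaded DBA/2 macrophages and replicates 2, 3 and 4 of unloaded AKR macrophages. Both strains were ApoE-deficient (ApoE-/-), so no group had an intact Apoe gene. The mice were 16 weeks old and, by the labels of experiment 2, male. Bone marrow cells were grown into macrophages for 13 days in L-cell conditioned medium, a source of the growth factor M-CSF, and the unloaded dishes then spent 24 h without acetylated LDL (AcLDL). The experiment also had 4 arrays of AcLDL-loaded cells of each strain (50 µg/ml). Experiment 1 repeated all 4 groups, with 4 arrays each, in cells labelled female, at 100 µg/ml AcLDL and on an earlier version of the Illumina array. The dishes of a group were not stated to come from separate mice, so the tests measure the spread between cultures. Loaded arrays and experiment 1 enter below only where they show how the strain difference of the unloaded cells held elsewhere.

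The array labelled AKR unloaded replicate 1 was left out, and the 7 arrays were thus chosen by measured values, namely the correlations between arrays. Over the probes kept for testing its mean correlation was 0.986 with the 4 arrays labelled loaded AKR and 0.965 with the other 3 unloaded AKR arrays. The array labelled AKR loaded replicate 2 showed the reverse, with a mean r of 0.968 with the other loaded AKR arrays and 0.985 with the unloaded ones. Unloaded AKR replicate 2, which stayed in, had a mean r of 0.983 with the other unloaded AKR arrays and 0.973 with the loaded ones. The p-values of the 7-array fit therefore come after an array was removed for standing apart, which narrows the spread among AKR arrays. Where the fit with all 8 labelled arrays ends the call of a gene described below, its adjusted p is given.

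Bone marrow macrophages take up modified lipoproteins through scavenger receptors, hydrolyse their cholesteryl esters in lysosomes and pass the cholesterol on for storage or export. They also sense microbes through toll-like and Fc receptors, answer type I interferon with a large set of antiviral genes, and show peptides on MHC molecules, whose genes differ in sequence between inbred strains. The AKR and DBA/2 strains are compared because they differ in susceptibility to atherosclerosis when they lack ApoE. A difference between unloaded cells of the strains is the baseline on which any response to loading is read.

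All values are normalized signals on a log2 scale, and a difference is DBA/2 minus AKR. A probe was tested if either strain's mean lay above 4.29, the median signal of the whole table, a gene was read from its brightest tested probe, and calls were made by limma at an adjusted p under 0.01. Of 13067 probes tested, 1520 were called (11.6%), 710 higher and 810 lower in DBA/2 macrophages, and 484 of them differed at least 2-fold. By gene, 1114 of 8935 were called (12.5%), with 522 higher (5.84%) and 592 lower (6.63%) in DBA/2. At least 2-fold differences were called for 350 genes (3.92%), 188 higher and 162 lower. The median difference over all tested genes was -0.01. With all 8 labelled arrays 989 probes were called (7.61%), and 983 probes were called in both fits, all in the same direction. The values of the strains did not overlap in 2915 of the 8935 genes (32.6%), so a gap between the groups is by itself common on these arrays.

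The largest differences ran to 5.18 upward and -6.95 downward. Among called genes 17 were higher in DBA/2 by 3 log2 units or more, and 5 were lower by as much. Pilrb1, an activating paired immunoglobulin-like receptor of myeloid cells, had signals of 8.47, 8.60, 8.60 and 8.58 in DBA/2 macrophages, against 3.82, 2.99 and 3.34 in AKR macrophages. It was well above the table median in every DBA/2 array and below it in every AKR array, a difference of 5.18 ± 0.17 (SE; limma adjusted p = 1.55e-08).

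Several class I heavy chains, which carry peptides to the cell surface for CD8 T cells and natural killer cells, stood next to it. H2-K1 had 11.73, 11.89, 11.67 and 11.48 in DBA/2 cells, against 7.56, 7.29 and 7.35 in AKR cells. H2-Q5 had 10.44, 10.72, 10.76 and 10.64 in DBA/2 cells, against 5.47, 6.14 and 5.92 in AKR cells. H2-D1 had 9.34, 9.78, 9.95 and 9.93 in DBA/2 cells, against 5.58, 6.16 and 5.61 in AKR cells. Every DBA/2 array lay more than 3 log2 units above every AKR array for these genes, and the differences were 4.29, 4.79 and 3.97 for H2-K1, H2-Q5 and H2-D1. H2-Q8 differed by 4.57 ± 0.14 (adjusted p = 1.55e-08).

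**Figure D1:**
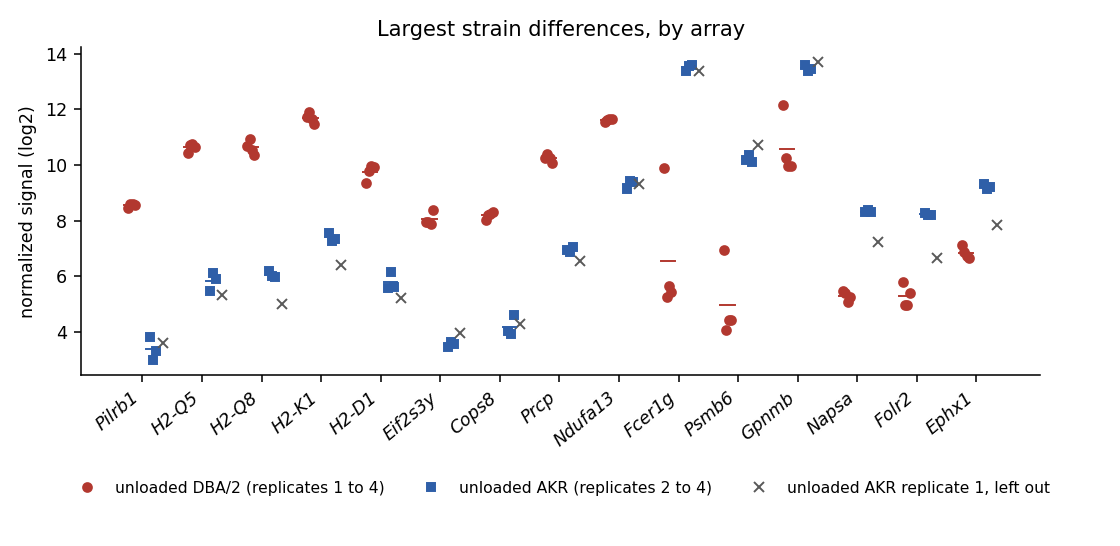
Normalized log2 signal (y axis) of 15 genes with large strain differences (x axis), with the 4 unloaded DBA/2 arrays as red circles, AKR replicates 2 to 4 as blue squares, and short lines at group means. The left-out AKR replicate 1 is a grey cross. The groups are apart for every gene shown, and for Fcer1g, Psmb6 and Gpnmb the DBA/2 replicate 1 lies apart from the other DBA/2 arrays, at 9.91, 6.96 and 12.14.

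Other genes higher in DBA/2 had varied roles. Cops8, a subunit of the COP9 signalosome, had 8.04, 8.20, 8.23 and 8.30 in DBA/2 cells and 4.03, 3.94 and 4.60 in AKR cells. Prcp, a lysosomal carboxypeptidase that removes residues after proline, had 10.26, 10.38, 10.25 and 10.09 in DBA/2 cells and 6.96, 6.88 and 7.07 in AKR cells. Both genes were thus high in all DBA/2 arrays, with differences of 4.00 ± 0.15 and 3.27 ± 0.11. Cd300ld, a myeloid receptor of the CD300 family, was higher by 3.30, Ero1b, an oxidase that forms disulfide bonds in the endoplasmic reticulum, by 3.22, and Fblim1, a filamin-binding protein, by 3.71. Ndufa13, a subunit of respiratory complex I, averaged 11.62 ± 0.06 in DBA/2 (SD, n = 4) and 9.32 ± 0.14 in AKR (SD, n = 3), while the other 31 tested complex I subunits were not called. Lrrc57, Ogfrl1 and Brat1 were higher by 3.52, 3.11 and 3.29. The AKR means of Pilrb1, Cops8, Lrrc57, Ero1b and Brat1 were below the table median. So were those of Stab2 (4.07), Cxcl14 (4.20), Cd79b (4.07), Tlr3 (4.19) and Eif2s3y (3.56), described below. The DBA/2 means of C2 (4.18) and Tceanc2 (4.25), also described below, were under it too. Detection p-values were not used here, so those differences are of normalized values, some of which may be array background.

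The gene furthest lower in DBA/2 was Fcer1g, the signalling chain shared by activating Fc receptors. Its signal was 9.91, 5.26, 5.66 and 5.44 in DBA/2 macrophages, against 13.38, 13.57 and 13.60 in AKR macrophages. The DBA/2 arrays themselves were split, with replicate 1 more than 4 log2 units above the other 3 and still below every AKR array. Psmb6, a catalytic subunit of the constitutive proteasome, had 6.96, 4.09, 4.45 and 4.45 in DBA/2 cells and 10.19, 10.37 and 10.12 in AKR cells. Gpnmb, a lysosomal membrane glycoprotein, had 12.14, 10.24, 9.97 and 9.96 in DBA/2 cells and 13.60, 13.38 and 13.44 in AKR cells. In both genes replicate 1 of DBA/2 again lay nearest to AKR. The differences over all 7 arrays were -6.95 ± 0.91 for Fcer1g, -5.24 ± 0.54 for Psmb6 and -2.90 ± 0.43 for Gpnmb. Without DBA/2 replicate 1 they were -8.07, -5.89 and -3.42. With trend and robust eBayes, which fits the spread of each probe differently, Fcer1g and Gpnmb were not called (adjusted p = 0.0151 and 0.0236).

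DBA/2 replicate 1 was the DBA/2 array nearest to AKR in 99 of the 162 genes lower by 2-fold or more and in 75 of the 188 genes higher by as much. Replicates 2, 3 and 4 were nearest in 22, 24 and 17 of the lower genes and in 32, 39 and 42 of the higher ones. Its mean correlation with the other DBA/2 arrays was 0.989. The part of this array in the results was not tested. List counts that moved by over 1.5 times without it are given in the last section.

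Further genes were lower in DBA/2. Napsa, an aspartic peptidase of lysosome-related compartments, had 5.49, 5.41, 5.08 and 5.27 in DBA/2 cells and 8.31, 8.38 and 8.30 in AKR cells. Ephx1, the microsomal epoxide hydrolase, had 7.12, 6.86, 6.73 and 6.65 in DBA/2 cells and 9.32, 9.15 and 9.20 in AKR cells. Folr2, the folate receptor of macrophages, had 5.80, 4.98, 4.98 and 5.41 in DBA/2 cells and 8.28, 8.21 and 8.20 in AKR cells. All 3 genes were low in every DBA/2 array, by -3.02 ± 0.12, -2.38 ± 0.13 and -2.94 ± 0.18. E2f2, a transcription factor of the cell cycle, was lower by -2.55, and Mul1, a mitochondrial ubiquitin ligase, by -2.06. Myo5a, a myosin motor that moves organelles, and Washc3, a subunit of the WASH complex on endosomes, were lower by -1.89 and -1.87. Zfp277, Clba1, Tceanc2, Fxyd2 and Rassf3 were lower by -2.15, -2.63, -2.29, -2.60 and -1.63.

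The class I list had 21 genes, of which 14 had a tested probe, and 7 were higher and 3 lower in DBA/2, against 12.5% of all genes called. Besides H2-K1, H2-D1, H2-Q5 and H2-Q8, the higher ones were H2-Q2 (0.86), H2-T23 (0.88) and H2-M3 (0.98). The lower ones were H2-M2 (-2.06), H2-T10 (-1.25) and H2-Q7 (-1.15, with an adjusted p of 0.0335 with all 8 labelled arrays). These genes are near-identical copies of each other in places, so a probe may read more than 1 of them, and the sequences of the probes were not used here. Tap1, which pumps peptides into the endoplasmic reticulum, was higher by 1.17 ± 0.10 and Nlrc5, the transcriptional activator of class I genes, by 1.22 ± 0.11. They were the only called genes among 14 tested of the peptide loading and immunoproteasome list. Psmb6 was the only called gene among 12 tested constitutive proteasome subunits.

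Class II presentation was split, with 3 of 11 tested genes higher and 3 lower (54.5% called, against 12.5% of all genes). Cd74, the invariant chain that guides class II molecules to endosomes, averaged 10.03 ± 0.34 in DBA/2 cells (SD, n = 4) and 11.35 ± 0.04 in AKR cells (SD, n = 3), and Ciita, the master regulator of class II genes, differed by -1.21. H2-DMb1 and H2-DMa encode chains of the peptide exchange factor DM, and they moved apart, by -2.97 and 1.05. H2-DMb2, another DM chain, was higher by 0.81 and stayed called with all 8 labelled arrays (adjusted p = 0.00296). Its AKR mean, 3.96, was below the table median. Ciita and H2-DMa were not called with all 8 labelled arrays (adjusted p = 0.103 and 0.0227). H2-Ab1, the class II beta chain, had 4 tested probes that did not agree. Its brightest probe differed by 0.17 (adjusted p = 0.431), while others differed by 1.72, 0.86 and -2.90, each with an adjusted p under 0.01.

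Probes of 1 gene could be compared in 2364 genes with at least 2 tested probes. In 428 of them at least 1 probe was called. All tested probes were called in the same direction in 103 of the 428 genes (24.1%), and probes were called in opposite directions in 7 (1.64%). In 252 genes only some probes were called but all had the same sign, and in 66 an uncalled probe had the other sign. Agreement in calls was more frequent at larger differences, up to 3 log2 units, but it needs each probe to reach a call. Every other probe was called in the same direction in 50 of 227 genes whose brightest probe was called with a difference under 1, in 41 of 76 genes between 1 and 2, and in 10 of 11 genes between 2 and 3. At 3 or more it held in 2 of 4 genes. By sign alone, all other probes went the same way in 191 of 227, 66 of 76, 10 of 11 and 4 of 4 genes. The difference of the brightest probe correlated with that of the next brightest at r = 0.665 over the 2364 genes. This is a description across genes that share the same 7 arrays.

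**Figure D2:**
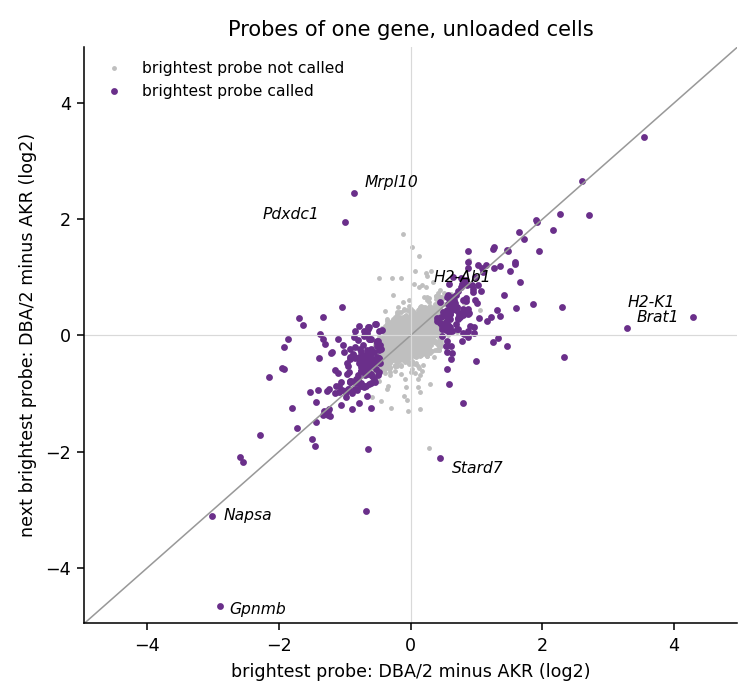
DBA/2 minus AKR difference (log2) of the brightest tested probe (x axis) and the next brightest probe (y axis) of each of 2364 genes, with genes whose brightest probe was called in purple and the line of equal values in grey. Most called genes lie near the line or between it and the horizontal axis, while H2-K1 and Brat1 have a large difference on only 1 of the 2 probes, and Mrpl10, Pdxdc1 and Stard7 have opposite signs.

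Napsa and Gpnmb had the same direction on every tested probe. The 3 probes of Napsa differed by -3.02, -2.75 and -3.11, and the 4 of Gpnmb by -2.90, -3.38, -4.66 and -3.37. Fxyd2, the gamma subunit of the sodium-potassium pump, also agreed on its 3 probes, from -2.10 to -3.68. H2-K1 and Brat1 did not, since their second probes differed by 0.32 and 0.12 and were not called. Washc3 had 2 further probes, at -0.22 and -0.06, neither of them called.

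The 7 genes with opposite calls were H2-Ab1, Mrpl10, Pdxdc1, Stard7, Sirpb1a, Ugt1a6a and Prdx1. The probes of Mrpl10, a protein of the mitochondrial ribosome, gave -0.85 and 2.45. On its first probe the signals were 8.61, 8.49, 8.61 and 8.60 in DBA/2 cells and 9.46, 9.43 and 9.41 in AKR cells. On its second they were 8.10, 8.14, 8.40 and 8.48 in DBA/2 cells and 5.54, 5.94 and 6.0 in AKR cells. The strains were thus apart on both probes, in opposite orders. Sirpb1a, a signal-regulatory receptor, gave 0.79 (adjusted p = 0.0199 with all 8 labelled arrays) and -1.17, Prdx1, a peroxiredoxin, 0.58 and -0.83, and Pdxdc1 -1.01, 0.90 and 1.94. The widest gap was 4.62 log2 units, in H2-Ab1. The authors removed probes that lie on sequence differences between the strains from their own analysis, but the table used here keeps them. Their part in these disagreements, and in the other differences given here, was not tested. No other tested probe was available for Fcer1g, Psmb6, Ndufa13, H2-D1, H2-Q5 or H2-Q8.

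Interferon-stimulated genes were higher in DBA/2 macrophages. Of 33 tested genes of the list, 20 were called higher and 0 lower, and their median difference was 0.80, against -0.01 over all genes. In all genes tested, 5.84% were called higher. The promoters of 2 called members, Isg15 and Igtp, are printed because they hold the interferon-stimulated response element, and that of Asns, from the stress list described next, because it holds the element bound by ATF4. The promoters are 300 bases of the RefSeq assembly GRCm38.p6, a mouse strain other than these 2, with matches to GAAANNGAAA or, in Asns, to TGATGNAA in capitals, on either strand.
Isg15 promoter, chr4:156200769-156201068, minus strand: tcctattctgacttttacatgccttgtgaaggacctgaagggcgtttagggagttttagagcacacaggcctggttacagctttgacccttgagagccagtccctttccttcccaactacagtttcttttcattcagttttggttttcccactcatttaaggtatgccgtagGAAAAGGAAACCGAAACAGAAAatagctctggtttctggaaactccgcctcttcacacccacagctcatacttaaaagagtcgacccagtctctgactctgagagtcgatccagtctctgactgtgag
Igtp promoter, chr11:58199306-58199605, plus strand: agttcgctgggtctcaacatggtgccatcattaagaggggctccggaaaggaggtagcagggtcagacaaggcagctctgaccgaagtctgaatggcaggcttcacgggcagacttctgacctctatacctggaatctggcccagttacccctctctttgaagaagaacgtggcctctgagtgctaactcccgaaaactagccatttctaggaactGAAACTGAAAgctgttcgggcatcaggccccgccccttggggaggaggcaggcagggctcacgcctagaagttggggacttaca
Asns promoter, chr6:7693160-7693459, minus strand: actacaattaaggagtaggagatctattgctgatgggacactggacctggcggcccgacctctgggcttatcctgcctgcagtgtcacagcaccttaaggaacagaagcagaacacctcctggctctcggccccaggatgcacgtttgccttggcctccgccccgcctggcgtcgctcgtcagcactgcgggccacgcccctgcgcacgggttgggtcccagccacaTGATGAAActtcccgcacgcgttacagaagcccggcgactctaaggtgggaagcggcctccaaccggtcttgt
Overlapping matches were counted apart, and Isg15 had 3 of them in 1 run. GAAANNGAAA was found in 3.44% of the 32851 promoters. It was in 9 of the 14 higher interferon genes that had a promoter in the table and in 8 of the 11 uncalled ones, so its presence did not separate them. TGATGNAA was found in 3.97% of promoters, in 4 of 8 higher members of the ATF4 list and in 3 of 11 uncalled ones.

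Ifit2, an interferon-induced protein that limits viral translation, had 10.05, 10.52, 10.01 and 9.88 in DBA/2 cells, against 8.25, 8.37 and 8.58 in AKR cells. Isg15, a ubiquitin-like modifier, had 9.43, 9.95, 9.74 and 9.40 in DBA/2 cells, against 8.20, 8.26 and 8.04 in AKR cells. In both genes the DBA/2 arrays were all more than 1 log2 unit above the AKR arrays, with differences of 1.72 ± 0.15 and 1.46 ± 0.14 (adjusted p = 1.76e-05 and 3.53e-05). Mx1 and Mx2, antiviral dynamin-like GTPases, were higher by 1.60 and 1.32, and Oas3, an RNA-activated synthetase, by 1.21. Igtp, an interferon-inducible GTPase of vacuoles, was higher by 1.20, and Usp18, the protease that removes Isg15, by 1.02 on its brightest probe and by 1.21 and 1.03 on its other probes. The transcription factors Irf7 and Stat2 were higher by 1.04 and 0.95.

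With all 8 labelled arrays 8 of the interferon genes were called, against 8.07% of all genes. The left-out AKR array lay further from DBA/2 than the AKR mean in all 20 genes, with 6.08 for Ifit2 and 6.03 for Isg15. The differences with 8 arrays were accordingly larger, 2.30 and 2.00, and their adjusted p-values were 0.00674 and 0.00937. Igtp, Usp18 and Irf7 were not called with 8 arrays (adjusted p = 0.0114, 0.0124 and 0.0613). The mean log2 signal of the list was 8.07, 8.38, 8.33 and 8.15 in the unloaded DBA/2 arrays, against 7.43, 7.58 and 7.53 in AKR replicates 2, 3 and 4 and 6.04 in the left-out array. The 3 loaded AKR arrays other than replicate 2 lay between 5.98 and 6.09, and the loaded DBA/2 arrays between 6.03 and 6.35.

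**Figure D3:**
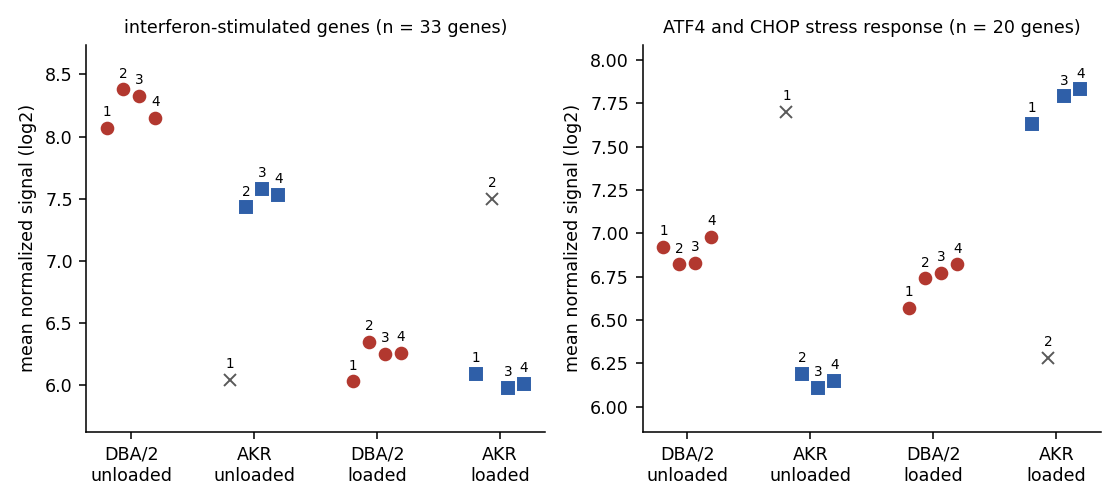
Mean log2 signal (y axis) over 33 interferon-stimulated genes (left) and 20 genes of the ATF4 and CHOP response (right) in each array of experiment 2 (x axis, groups; numbers are replicates), with DBA/2 in red, AKR in blue, and the 2 AKR arrays that correlated best with the other AKR group as grey crosses. The unloaded DBA/2 arrays lie above AKR replicates 2 to 4 in both lists, and the left-out array lies below them for interferon genes (6.04) and above them for the stress response (7.70).

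The ATF4 and CHOP response is switched on by amino acid shortage or unfolded proteins. Its genes gave 9 higher and 0 lower of 20 tested (45.0% called, against 12.5% of all genes), with a median difference of 0.62. This count rests on the array left out. With all 8 labelled arrays 1 of the 20 genes was called, and the left-out array lay beyond the DBA/2 mean in 8 of the 9 genes. Slc7a5, which carries leucine and other large amino acids into cells, had 7.83, 7.57, 7.85 and 8.03 in DBA/2 cells, against 5.70, 5.30 and 5.45 in AKR cells and 8.67 in the left-out array. Asns, the asparagine synthetase, had 8.99, 8.68, 8.92 and 9.24 in DBA/2 cells, against 7.52, 7.46 and 7.45 in AKR cells and 10.04 in the left-out array. For both genes replicates 2 to 4 of AKR were clearly low, while the left-out array was higher than every DBA/2 array. With 8 arrays the differences of Slc7a5 and Asns were 1.54 (adjusted p = 0.13) and 0.84 (adjusted p = 0.313).

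Ddit3, which encodes CHOP, differed by 1.27 ± 0.10, and Chac1, which degrades glutathione, by 2.39. Nupr1, a stress-induced nuclear protein, differed by 1.12, and with 8 arrays by 1.01 (adjusted p = 6.84e-04). Mthfd2 and Shmt2, enzymes of mitochondrial folate metabolism, differed by 1.03 and 0.90. Of these 5 genes Nupr1 alone was called with 8 arrays, and the adjusted p-values of Ddit3, Chac1, Mthfd2 and Shmt2 were 0.163, 0.337, 0.244 and 0.178. In loaded cells the order of the strains was turned round: the differences were -1.90 for Slc7a5, -1.21 for Asns, -1.39 for Ddit3 and -1.22 for Nupr1, each called. Of chaperones of the endoplasmic reticulum, 2 of 13 tested were called (15.4%, against 12.5% of all genes), among them Hyou1, which was higher by 1.02.

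**Figure D4:**
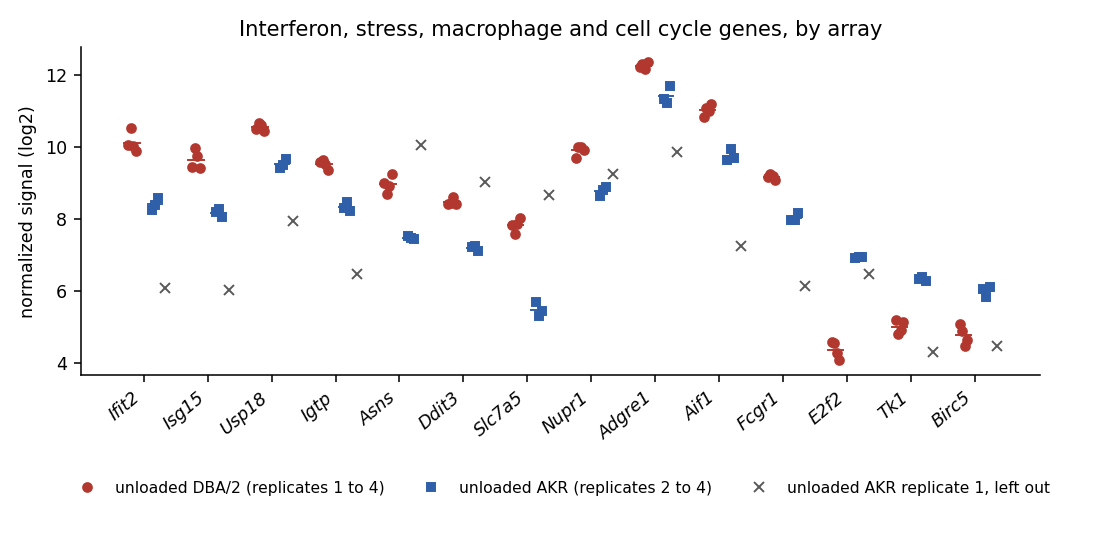
Normalized log2 signal (y axis) of 14 genes of the interferon, stress, macrophage and proliferation lists (x axis), with unloaded DBA/2 arrays as red circles, AKR replicates 2 to 4 as blue squares, short lines at group means, and the left-out AKR replicate 1 as a grey cross. The cross lies below the AKR mean for the interferon and macrophage genes, as at 6.08 for Ifit2. It lies above the DBA/2 arrays for Asns, Ddit3 and Slc7a5, as at 8.67 for Slc7a5. That array correlated best with the arrays labelled loaded AKR (mean r of 0.986).

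The called chemokines and cytokines were all higher in DBA/2. Ccl7, a chemokine that draws monocytes, had 9.68, 9.73, 10.21 and 10.22 in DBA/2 cells, against 7.62, 8.21 and 8.24 in AKR cells. Ccl2, the main monocyte chemokine, had 7.17, 6.80, 7.28 and 7.34 in DBA/2 cells, against 6.15, 6.12 and 6.08 in AKR cells. Ccl12, a close relative, was higher by 1.02 ± 0.12. These 3 of 9 tested CC chemokines (33.3% called, against 12.5% of all genes) were higher in every DBA/2 array. The other 6 were not called, and the median difference of the 9 was -0.11, with the lowest at -0.47. Cxcl14 was higher by 2.16 ± 0.12 and Cxcl16, a scavenger receptor as well as a chemokine, by 0.91, the called genes among 12 tested of the CXC chemokines and chemokine receptors (16.7%). Among inflammatory cytokines and their regulators 5 of 15 were higher and 0 lower (33.3% called). They were Il1b (1.32), Tnf (0.96), Il10 (0.87), Il18 (0.59) and Tnfaip3 (0.57). With all 8 labelled arrays Il1b alone of these 5 was called (adjusted p = 0.00323), and the adjusted p-values of Tnf, Il10, Il18 and Tnfaip3 were 0.0203, 0.0535, 0.0412 and 0.854. Ccl12 and Cxcl16 were not called with 8 arrays (adjusted p = 0.0333 and 0.0158).

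Receptors moved in both directions. Fcgr4 and Fcgr1, activating receptors for IgG that pair with the Fcer1g chain, were higher by 1.40 and 1.14, and Fcrls, an Fc receptor-like protein, by 2.58, whereas Fcer1g was lower. Of 7 tested Fc receptor genes 3 were thus higher and 1 lower (57.1% called). Fcrls had 12.39, 12.37, 11.96 and 12.89 in DBA/2 cells, against a mean of 9.82 ± 0.24 in AKR cells (SD, n = 3) and 5.43 in the left-out array. Its DBA/2 values lay above all AKR values, but the spread among 4 AKR arrays gave an adjusted p of 0.0144, and Fcgr1 was likewise not called (adjusted p = 0.0142). The paired and activating myeloid receptors had 5 higher and 5 lower of 26 (38.5% called). Besides Pilrb1 and Cd300ld, Siglece and Pilra, both inhibitory, were higher by 0.95 and 0.68, the second lost with 8 arrays (adjusted p = 0.017). Cd33, another sialic acid receptor, was lower by -1.16, and Clec7a, the receptor for beta-glucan, by -0.51.

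Scavenger receptors gave 3 higher and 1 lower of 9 tested (44.4% called, against 12.5% of all genes). Stab2, an endocytic receptor for hyaluronan, had 6.36, 6.50, 6.24 and 6.28 in DBA/2 cells, against 3.99, 3.89 and 4.34 in AKR cells. Marco, a receptor for bacteria and particles, was higher by 1.29, and Colec12, a collectin with scavenger function, was lower by -1.10. Of 17 toll-like receptor genes and adaptors 3 were higher and 1 lower (23.5% called, against 12.5% of all genes). Tlr3, the receptor for double-stranded RNA, was higher by 0.79 and Tlr1 was lower by -0.77, the second lost with 8 arrays (adjusted p = 0.143). Cd14 and Ly86, accessory proteins of endotoxin sensing, were higher by 0.58 and 0.64, but with the replicate number as a block their adjusted p-values were 0.0115 and 0.0149, and with all 8 labelled arrays 0.0267 and 0.0528. Cd55, which protects cells from complement, was higher by 2.11 and complement component C2 lower by -1.73.

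Lysosomal genes were spread around 0. Of 43 tested hydrolases 6 were higher and 7 lower (30.2% called), with a median difference of -0.08. Besides Prcp, the cathepsins Ctsh (1.80), Ctsc (0.98) and Ctse (0.74) were higher, and Ctsk (-1.80), Ctsl (-1.55), Ctsf (-1.06) and Napsa were lower. Ctsk, a collagen-degrading protease best known from osteoclasts, had 7.13, 6.70, 6.84 and 6.28 in DBA/2 cells, against 8.64, 8.52 and 8.44 in AKR cells. Its AKR arrays were close together and all above the DBA/2 arrays. Of 28 tested genes for lysosomal membrane proteins and the proton pump 2 were higher and 4 lower (21.4% called). Atp6v1d and Atp6v0a2, subunits of the proton pump, were higher by 2.23 and 0.58, the second lost with 8 arrays (adjusted p = 0.0272), and Atp6v0b, another subunit, was lower by -0.70.

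In sterol metabolism the called genes of each list had a common direction. Of 17 tested genes of cholesterol synthesis and SREBP2 targets 4 were higher and 0 lower (23.5% called, against 12.5% of all genes). The higher ones were Sqle (1.07), Stard4 (1.06), Hsd17b7 (0.74) and Cyp51 (0.56). Sqle, the squalene epoxidase, had 8.54, 8.24, 8.66 and 8.59 in DBA/2 cells, against 7.36, 7.59 and 7.38 in AKR cells. Of 10 tested LXR targets 0 were higher and 4 lower. Mertk, a receptor for apoptotic cells, was lower by -1.22, Nr1h3, which encodes LXR alpha, by -0.79, Scd1, the stearoyl-CoA desaturase, by -0.66, and Abcg1, an exporter of cholesterol, by -0.58. With all 8 labelled arrays Stard4, Abcg1 and Scd1 were not called (adjusted p = 0.0127, 0.051 and 0.0331). Nr1h3 had a second probe, at 0.16, that was not called. Of 11 tested lipid droplet and sterol ester genes 0 were higher and 3 lower (27.3% called). Pparg, a lipid-sensing nuclear receptor, Fabp5, a fatty acid carrier, and Nceh1, a cholesteryl ester hydrolase, were lower by -0.87, -0.95 and -0.53. Nceh1 was not called with all 8 labelled arrays (adjusted p = 0.0177), and Pparg had a second tested probe, at -0.32, that was not called.

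The antioxidant targets of NRF2 gave 2 higher and 6 lower of 14 tested (57.1% called). The lower ones included Ephx1, Gclm (-1.19), which makes glutathione, and Gstm1 (-0.92, and -0.37 on an uncalled second probe), which uses it. The higher ones were Cat, the catalase (0.90), and Prdx1 on its brightest probe. Of 23 tested proliferation genes 0 were higher and 6 lower (26.1% called). Tk1, the thymidine kinase of S phase, had 5.01 ± 0.18 in DBA/2 cells (SD, n = 4) and 6.34 ± 0.05 in AKR cells (SD, n = 3). Birc5, a mitotic survivin, was lower by -1.23, and Tyms, the thymidylate synthase, by -1.10. The 2 other tested probes of Tyms were not called, at -0.45 and -0.06. The left-out array was at 4.30 for Tk1 and 4.48 for Birc5, below the DBA/2 mean, and with 8 labelled arrays only E2f2 of this list was called, with adjusted p-values of 0.215 for Tk1, 0.109 for Birc5 and 0.0378 for Tyms. Of 23 autophagy genes 2 were lower (8.7%, near the 6.63% of all genes called lower), Gabarapl1 by -0.63 and Wipi1 by -0.60. Wipi1 was not called with the replicate number as a block (adjusted p = 0.0106) or with all 8 labelled arrays (adjusted p = 0.0509).

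The cultures had macrophage transcripts at high signal in both strains. Of 10 tested macrophage identity genes 5 were higher and 1 lower in DBA/2, and their summed linear signal ranged over 30400-32000 in DBA/2 arrays and 22400-25200 in AKR arrays. Adgre1, which encodes F4/80, averaged 12.24 ± 0.09 in DBA/2 cells (SD, n = 4) and 11.40 ± 0.24 in AKR cells (SD, n = 3), and was higher on all 3 probes. Aif1, an actin-binding protein of macrophages, was higher by 1.26, with 1.51 and 0.91 (adjusted p = 3.02e-05 and 0.0212) on its other tested probes. With 8 labelled arrays neither was called (adjusted p = 0.0253 and 0.0246), since the left-out array was at 9.84 and 7.26. In such bulk samples fewer cells of a type and less RNA per cell cannot be told apart.

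Markers of other cells were mostly below the limit for testing. Of 12 T and NK cell markers 2 were tested, of 8 dendritic cell markers 1, and of 10 mast and erythroid markers 2, none of them called. Neutrophil and granule precursor markers had 4 of 12 tested, with a summed linear signal of 364-411 in DBA/2 arrays and 879-977 in AKR arrays. The sums rest largely on S100a8, a calcium-binding protein of neutrophils and monocytes. It was lower by -1.79, with log2 means of 7.78 in DBA/2 and 9.57 in AKR. The other 3 tested markers were not called, and the median difference of the list was -0.34, with the highest at 0.07. Osteoclast markers had 5 of 8 tested, summed at 1030-1130 in DBA/2 arrays and 1570-1800 in AKR arrays. Of these 3 were lower, namely Ctsk, Mmp9 (-0.65) and Acp5 (-0.49). Acp5 had an adjusted p of 0.0187 with the replicate number as a block and 0.0103 with all 8 labelled arrays. Its means, 3.85 in DBA/2 cells and 4.34 in AKR cells, lay near the limit for testing. With an offset of 50 on the linear scale it was not called (-0.12, adjusted p = 0.107). Stromal markers had 4 of 9 tested, none called, summed at 150-287 in DBA/2 arrays and 143-152 in AKR arrays. B and plasma cell markers had 2 of 10 tested, summed at 162-184 in DBA/2 arrays and 147-162 in AKR arrays, with Cd79b higher by 1.58 on its brightest probe and by 1.26 on its other one. The part of other cells in the results was not tested.

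Sex-linked genes were read as a check of the label. Eif2s3y, the Y-linked copy of a translation initiation subunit, had 7.94, 7.96, 7.89 and 8.40 in DBA/2 cells, against 3.45, 3.66 and 3.57 in AKR cells. It was the only called gene of 8 tested sex-linked genes. The other Y-linked genes tested, Kdm5d and Uty, differed by -0.21 and 0.06 and lay near 5 in both strains, and Xist, which silences an X chromosome in females, averaged 4.20 in DBA/2 cells and 4.35 in AKR cells. Apoe itself had 5.44, 5.23, 5.13 and 5.20 in DBA/2 cells, against 5.99, 6.06 and 6.03 in AKR cells, a difference of -0.78 ± 0.10. All groups carried the Apoe deletion, and the probe's place relative to the deleted part was not known, so this value does not check the deletion.

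The called genes were spread over all chromosomes tested. The share of tested genes that differed by 2-fold or more was highest on chromosome 1 (7.03%, 32 of 455 genes) and chromosome 17 (5.74%, 27 of 470), which holds the MHC, and lowest on the X chromosome (1.41%, 4 of 284). Around Apoe on chromosome 7, 7 of the 100 nearest tested genes were called (7.0%), against 103 of 627 on the rest of the chromosome (16.4%). Of the nearest 100 genes 2 differed by 2-fold or more, and of the others 36. These are counts of neighbouring genes that are not independent of each other, and no test was made of them.

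Experiment 1, whose arrays had no part in the choice of members, gave an outside reading of the same strains. Of its 12783 tested probes 3495 were called between unloaded cells (27.3%), and 27.2% of its genes. Of the 350 genes that differed by 2-fold or more in experiment 2, 305 were tested there, and 215 were called in the same direction, 12 in the opposite direction and 78 not called. Prcp differed by 3.33, Pilrb1 by 3.30, Cd300ld by 2.39, Cops8 by 2.16, Atp6v1d by 1.96 and Stab2 by 3.46 on the same probes. Fcer1g and Psmb6 differed by -7.60 and -3.65 there on other probes, and Gpnmb by -1.74 on the same probe. Probes on sequence differences between the strains were kept there too. Levels were not compared across the experiments, which were normalized apart.

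**Figure D5:**
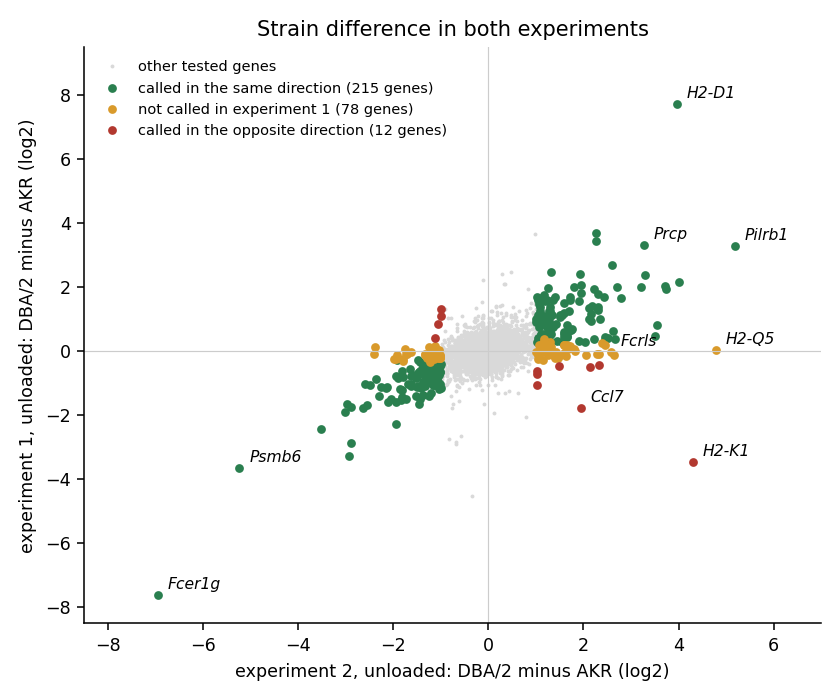
DBA/2 minus AKR difference (log2) in unloaded cells of experiment 2 (x axis) and experiment 1 (y axis) for genes tested in both, each read from its brightest tested probe. Of the genes that differed 2-fold or more in experiment 2, 215 were called in the same direction in experiment 1 (green), 78 were not called (orange) and 12 were called in the opposite direction (red), among them H2-K1 and Ccl7.

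Some groups did not keep their direction, or kept it only in part. Of all 8955 genes tested in experiment 1, 1256 were called higher and 1180 lower in DBA/2. Of 10 tested CC chemokines 7 were lower and 2 higher in DBA/2 in experiment 1, with -1.06 for Ccl12 and -0.62 for Ccl2 on the same probes and -1.76 for Ccl7 on another probe. H2-K1 differed by -3.45 there on another probe, and the uncalled probe that both arrays share differed by 0.11. H2-Q5 differed by 0.04 (adjusted p = 0.77) on another probe, and H2-D1 by 7.72. Of the interferon list 9 of 26 tested genes were higher and 4 lower, so higher calls still outnumbered lower ones. Igtp was at 0.36 and Mx2 at 0.54, both called, while Ifit2 at 0.15, Isg15 at 0.27 and Usp18 at 0.06 were not called (adjusted p = 0.175, 0.0492 and 0.555). Nlrc5, of the peptide loading list, was at 0.79. Of the cholesterol synthesis list 3 of 18 tested genes were higher and 4 lower. On the probes read in experiment 2, Stard4 was at 1.03 and Hsd17b7 at -0.36, both called. Sqle at -0.21 and Cyp51 at -0.12 were not called (adjusted p = 0.057 and 0.267). Of the NRF2 list 8 of 15 were higher and 1 lower, against 2 higher and 6 lower in experiment 2. Gstm1 was among those that turned, with 0.63 on the same probe. Ephx1, Slc7a5, Adgre1 and Aif1 were not called there on the same probes, at 0.15, -0.08, 0.03 and -0.08. Another probe of Adgre1 was called lower there, at -0.63 (adjusted p = 1.22e-04), against 1.14 in experiment 2. The proliferation list kept its direction, with 16 of 22 tested genes lower and 0 higher. The labelled sex, the array version and, by the paper, the year of treatment and analysis differ between the experiments and cannot be told apart.

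The loaded arrays of experiment 2, taken without AKR loaded replicate 2, were also outside the contrast. They held the same probes, including any on sequence differences between the strains. Of 13042 probes 2530 were called between the strains (19.4%), and 20.5% of genes, and of the 350 genes 339 were tested, of which 269 were called in the same direction and 16 in the opposite direction. H2-K1, H2-Q5, H2-D1, Cops8, Prcp and Eif2s3y differed by 4.11, 5.03, 4.06, 4.41, 3.74 and 4.66 there. In the 14-array fit the change of the strain difference with loading was called for 711 of 13911 probes (5.11%). Tk1 had a difference of 1.36 in loaded cells and -1.33 in unloaded cells, a change of 2.69 ± 0.21. Cxcl14 and Fcrls gained with loading, at 4.09 and 4.82 in loaded cells against 2.16 and 2.58 in unloaded cells. Isg15, Ifit2 and Usp18 were at 0.15, 0.38 and -0.23 in loaded cells, none of them called.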

How the data were processed

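Total RNA of bone marrow macrophages was hybridized by the authors to Illumina arrays, and the deposited tables hold log2 signals that the authors had quantile-normalized with lumi 2.6.0, for all 25697 probes of experiment 2 and 24613 of experiment 1. The authors' removal of probes on strain polymorphisms and of undetected probes was not applied here. The array platform's annotation named 23978 probes of experiment 2 for a single gene, and 1719 (6.69%) had no name and were reported only in counts of probes.

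DBA/2 replicates 1 to 4 were fitted against AKR replicates 2 to 4 with limma 3.58.1 in R 4.3.3 (lmFit, eBayes) and Benjamini-Hochberg adjustment over all tested probes. A 2-fold difference means 1 log2 unit or more. The number of arrays limits the precision, with a median SE of 0.121. The arrays and the gene lists were chosen with earlier results of these data known. Named genes were the 15 with the smallest p in each direction among those called with a 2-fold difference, up to 4 called genes per list, all sex-linked genes, Apoe, and up to 10 genes with probes called in opposite directions. List members beyond these were named after their values were seen.

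Replicate numbers were taken from the labels. In experiment 2 the deviations of same-numbered DBA/2 and AKR arrays from their group means correlated at 0.114, 0.132 and 0.145. In experiment 1 the 4 correlations ranged from 0.0482 to 0.159. Pairs with different numbers lay between -0.0786 and -0.0467 in experiment 2. In experiment 1 they ran from -0.206 to 0.174, so the number did not set pairs apart there. By the paper, each chip held unloaded and loaded samples of both strains. The labels do not name the chip, and its part was not tested. A fit with the number as a block was added, which need not follow the chips. In that of experiment 2, DBA/2 replicate 1 had no AKR partner, since AKR replicate 1 was left out. That array thus added nothing to the strain difference of the block fit. Alternatives were all 8 labelled arrays, fits over 14 or 16 arrays, other filters, an offset of 50 on the linear scale, centred arrays, array weights, a trend and robust eBayes, gene means of probes, and leaving out each array. Promoters were read from RefSeq (GRCm38.p6). Tables and figures were made with Python 3.11.15, pandas 2.3.3 and matplotlib 3.10.9.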

Additional observations from a re-analysis of the deposited data

Results flagged for a closer look

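Among 118 named genes, a single unloaded DBA/2 array stood apart from the other 3 in 10 genes, by Dixon's test for groups of 4. Chance gives about 1 in 20 such groups. Replicate 1 was the array in 5 of them: it was at 9.91 for Fcer1g, 6.96 for Psmb6, 12.14 for Gpnmb, 5.98 for H2-DMb1 and 6.20 for Myo5a, where the other DBA/2 arrays lay at 5.26-5.66, 4.09-4.45, 9.96-10.24, 5.36-5.41 and 5.81-5.86. Each of these values lay toward the AKR level. Replicate 3 was at 6.53 for Cxcl14 and 8.60 for Ddit3, replicate 4 at 8.40 for Eif2s3y, and replicate 2 at 11.45 for Fcgr4 and 8.49 for Mrpl10.

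The strain difference of 34 of the 118 genes changed with loading (limma interaction over 14 arrays, adjusted p under 0.01). In log2 units, the difference in loaded cells minus that in unloaded cells was -2.69 for Asns, -4.24 for Slc7a5, -2.66 for Ddit3 and -2.35 for Nupr1 in the stress response. It was -1.11 for Ccl2, -2.51 for Ccl7, -2.08 for Ccl12, -1.60 for Il1b and 1.93 for Cxcl14 among chemokines and cytokines, -1.34 for Ifit2, -1.32 for Isg15, -1.25 for Usp18 and -0.83 for Nlrc5 among interferon and class I regulators, and 1.47 for Birc5, 2.69 for Tk1, 1.42 for Tyms and 1.16 for E2f2 among proliferation genes. Macrophage markers and receptors changed by 1.08 for Adgre1, 0.97 for Aif1, 1.0 for Cd14, -1.87 for Fcgr4, 2.24 for Fcrls, 1.83 for Folr2, 1.28 for Itga6 and 1.14 for Itgb5. Genes of sterol metabolism changed by -1.26 for Sqle, -0.98 for Cyp51, -0.82 for Hsd17b7 and -0.90 for Nr1h3, and others by 1.38 for H2-DMa, 1.45 for H2-M2, 1.61 for Ephx1, -1.17 for Fblim1 and 0.82 for Napsa.

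In 12 named genes, each read from its brightest tested probe, the strain difference was called in both experiments with opposite signs. The strains did not overlap in either. The difference between the experiments was not tested. In experiment 1 it was -1.06 for Ccl12, -0.62 for Ccl2, -0.47 for Asns, -0.36 for Hsd17b7, 0.36 for Gabarapl1 and 0.63 for Gstm1 on the probe read in experiment 2, where the same probes gave 1.02, 1.03, 1.48, 0.74, -0.63 and -0.92. On other probes of the gene it was -1.76 for Ccl7, -3.45 for H2-K1, 1.33 for Pdxdc1, -2.06 for Sirpb1a, -1.24 for Stard7 and 0.34 for Wipi1, where experiment 2 gave 1.94, 4.29, -1.01, 0.79, 0.44 and -0.60. The experiment 1 probes of Pdxdc1, Sirpb1a and Stard7 were also tested in experiment 2. They gave 0.90, -1.17 and -2.11 there, so on the same probe these genes kept their sign. The experiment 1 probe of Wipi1 gave -0.66 in experiment 2, the opposite sign.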

How the results depend on the processing

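In place of the 1520 probes called, 989 were called with all 8 labelled arrays, of which 983 were among the 1520, and 829 with no filter on low signals. Leaving out 1 array gave 996 to 1340 probes, lowest without AKR replicates 4 (996) and 2 (1012). The 484 probes of 2-fold or more became 194 with an offset of 50, which shrinks differences between low signals, and ranged from 480 to 522 when 1 array was left out. The replicate block, in which DBA/2 replicate 1 added nothing to the strain difference, gave 1187 probes. Among the named genes it ended the calls of Acp5 (adjusted p = 0.0187), Cd14 (0.0115), Itgb5 (0.0114), Ly86 (0.0149), Pdia4 (0.0125), Stard7 (0.0228) and Wipi1 (0.0106), and changed no other call. All 8 labelled arrays ended 33 calls of named genes. Leaving out DBA/2 replicate 1 ended 3 of them. Trend and robust eBayes gave Fcer1g an adjusted p of 0.0151 and Gpnmb 0.0236.

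In the loaded cells 2530 probes became 1394 with all 8 labelled arrays. In experiment 1 the replicate block gave 3765 probes in place of 3495, and leaving out 1 array gave 2914 to 3300. With all 8 labelled arrays the called members were 8 of interferon-stimulated genes, 1 of the ATF4 and CHOP response, 3 of MHC class II, 2 of Fc receptors, 6 of paired receptors, 1 of CXC chemokines, 1 of toll-like receptors, 2 of LXR targets, 1 of autophagy, 1 of chaperones, 1 of proliferation, 1 of inflammatory cytokines, 1 of leukocyte integrins, 2 of macrophage identity genes and 0 of alternative activation. In the last list Ass1 had been the single call (limma adjusted p = 0.00181, and 0.0237 with 8 arrays). Without DBA/2 replicate 1, an alternative chosen after seeing the data, 5 lipid droplet genes and 1 chaperone were called. With the mean of a gene's probes the sign turned for Mrpl10 (0.80), Pdxdc1 (0.61), Prdx1 (-0.12), Sirpb1a (-0.19) and Stard7 (-0.44). With 3 AKR arrays an uncalled gene is not shown to be equal in the strains. The causes of these changes were not tested.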
